A study of Mus musculus with 21 samples.

Results

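The genes described here are 37 interferon-stimulated antiviral genes, taken by name from those known to be switched on by type I interferon. That rule uses no expression value, but the list was chosen with earlier results of these data known. Of 23545 genes in all, these 37 comprise 36 found under their gene name and Mx2, found by its 5 transcript identifiers. All 37 had a mean of at least 1 TPM over the 21 libraries, the minimum for testing, which 11764 genes passed. TPM is a transcript's share of its library after scaling by transcript length, so levels of different genes can be set side by side. The libraries were made from CD11b+ cells, which are mostly macrophages, washed from the unstimulated peritoneal cavity of C57BL/6 mice (mice n = 10, without a statement of how many per genotype or per well). Genotypes were wild type (WT, 9 libraries), Lum-/- (lumican knockout, 6 libraries) and Bgn-/0 or Bgn-/- (biglycan knockout, written Bgn-/- here, 6 libraries). Cells of each genotype received no stimulus, LPS at 100 ng/mL or CpG at 1 µM for 6 h in serum-free medium. WT cells received no protein, recombinant lumican or recombinant biglycan with each, Lum-/- cells no protein or lumican, and Bgn-/- cells no protein or biglycan. Protein was given at 10 µg/mL for 1 h before the stimulus, and no dose is stated for the libraries with protein alone. There is 1 library for each combination, so the effect of a genotype cannot be told apart from that of its cell preparation.

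LPS, a part of the outer membrane of Gram-negative bacteria, is sensed by TLR4, and CpG DNA by TLR9 in endosomes. TLR4 signals through MYD88 and also through TRIF, encoded by Ticam1, which leads to IRF3 and interferon beta. Secreted type I interferon binds the IFNAR receptor on the same and neighbouring cells, and a transcription factor complex with STAT2 and IRF9 then binds the interferon-stimulated response element (ISRE) in the promoters of genes whose products block viral entry, RNA, translation and budding. Lumican and biglycan belong to the matrix proteoglycans with leucine-rich repeats.

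The promoters of members that carry an ISRE core are shown because this element is what the group is known for and was not used to choose it. RefSeq promoter windows on GRCm38.p6, from 250 bases before to 50 after a transcription start, were found for 27 of the 37 genes. The core, TTTC and TTTC with any 2 bases between them, searched on both strands and with overlaps allowed, was in the windows of 14 of these 27 genes (51.9%), against 4.09% of the 8807 tested genes with a window. Over the windows themselves the shares were 46.9% of 32 for the members and 3.37% of 11254 for tested genes. Each sequence below is an 80-base stretch before the start, written 5′ to 3′ on the strand of the gene, and the capitals mark the matches to the core, which read as GAAA repeats where the element lies on the other strand.
Isg15 (chr4:156200840-156200919, - strand): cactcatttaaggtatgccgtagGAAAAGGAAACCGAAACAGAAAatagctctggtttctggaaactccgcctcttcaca
Ifit1 (chr19:34640769-34640848, + strand): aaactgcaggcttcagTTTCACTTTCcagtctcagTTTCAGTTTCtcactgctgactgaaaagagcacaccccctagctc
Ifit3 (chr19:34583372-34583451, + strand): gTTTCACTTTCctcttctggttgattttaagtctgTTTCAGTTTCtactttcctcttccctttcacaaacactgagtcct
Ifit3b (chr19:34607768-34607847, + strand): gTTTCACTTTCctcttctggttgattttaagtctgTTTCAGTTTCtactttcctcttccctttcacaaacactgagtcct
Rsad2 (chr12:26456528-26456607, - strand): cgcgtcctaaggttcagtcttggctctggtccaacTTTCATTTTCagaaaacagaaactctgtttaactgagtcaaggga
Oas1a (chr5:120907526-120907605, - strand): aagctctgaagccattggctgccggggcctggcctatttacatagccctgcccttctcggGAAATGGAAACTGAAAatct
Isg15 had 3 overlapping matches that form 1 run, and Ifit1 had 2 separate ones. The stretches of Ifit3 and Ifit3b, neighbouring genes on chromosome 19, were the same base for base. Oas1a had its matches next to the start itself. An NF-kB core, GGG and CC with any 5 bases between them, was in windows of 18 members (66.7%) against 71.8% of tested genes. A GAS core, TTC and GAA with any 3 bases between them, was in windows of 7 members (25.9%) against 8.41% of tested genes. A match of letters is a description and not a measured binding site, and the 10 members with no window were not searched.

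Members lie together at several places in the genome (GRCm38, GENCODE M21). Ifit2, Ifit3, Ifit3b and Ifit1 follow each other on the plus strand of chromosome 19, from 34550694 to 34650009. Rsad2 and Cmpk2 are divergent genes 12751 bases apart on chromosome 12, Oas2, Oas3 and Oas1a lie on chromosome 5, and Mx1 and Mx2 lie 72400 bases apart on chromosome 16. Parp9 and Dtx3l overlap by 682 bases on opposite strands. The kit is stranded, but whether the authors' counting used strand is not given in the sources used here, so reads in that overlap are uncertain. Ifit3 shared 61.8% of its 31-base words with Ifit3b, and Oas1a shared 68.7% with Oas1g, so the split of reads within these pairs is uncertain too.

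Before any result, 2 libraries stood apart from the rest, 1 differed from others of its label, and the targeted genes did not follow the labels. The untreated library labelled Lum-/- and the library labelled Bgn-/- with biglycan alone held 40241 and 40231 transcripts above 0, against 50990 to 59621 in the other 19, and they were the closest of all 210 pairs of libraries. They had the 2 highest unstimulated sums of the antiviral genes, though not the highest level of each gene, and their values are marked below. The untreated WT library had Cma1, a mast cell protease gene, at 1.03 TPM, against 20.5 to 34.2 TPM in the other 8 WT libraries and 0.572 to 3.55 TPM in the 12 libraries of the other labels. Its sum of mast cell markers was 3.45 TPM, against 86.0 TPM in WT with lumican alone. Lum was measured at 0.823 to 14.1 TPM in the 6 libraries labelled Lum-/- and at 0 to 1.40 TPM in WT, and Bgn at 0 to 3.49 TPM under the label Bgn-/- and at 0.327 to 1.52 TPM in WT, so genotypes are given as labels throughout. All 8 macrophage markers were present in every stimulus group, with a sum of 29600 to 44030 TPM unstimulated, 32680 to 37640 TPM with CpG and 11550 to 15340 TPM with LPS. Neutrophil markers, of which 2 of 5 had a mean of at least 1 TPM, summed to 239 to 402 TPM unstimulated. Their sum was 215 to 269 TPM with CpG and 343 to 412 TPM with LPS, and their part in the results was not tested. Markers of dendritic cells, of which the plasmacytoid kind makes much interferon, summed to 2.97 to 5.57 TPM over all libraries. That list mixes markers of plasmacytoid and other dendritic cells. In whole-culture RNA, fewer cells of a type and less RNA per cell cannot be told apart.

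All 37 antiviral genes rose with LPS in the fit. Its LPS difference rests on the libraries without protein, across the 3 genotype labels. In the single pairs of LPS and unstimulated libraries all were higher with LPS too, but some by less than 1.5-fold, such as Ifitm3 at 1.33-fold in TPM + 1 under the label Lum-/- without protein and 1.05-fold under the label Bgn-/- with biglycan. Together they made up 16298 to 23071 TPM in the 7 LPS libraries, 2091 to 7117 TPM in the 7 CpG libraries and 1821 to 7063 TPM in the 7 unstimulated ones. The highest unstimulated sums were 7063 TPM in the untreated library labelled Lum-/- and 6383 TPM with biglycan alone under the label Bgn-/-, and the other 5 lay between 1821 and 4529 TPM. The LPS range did not overlap the other ranges, whereas those of CpG and no stimulus overlapped almost entirely.

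**Figure D1:**
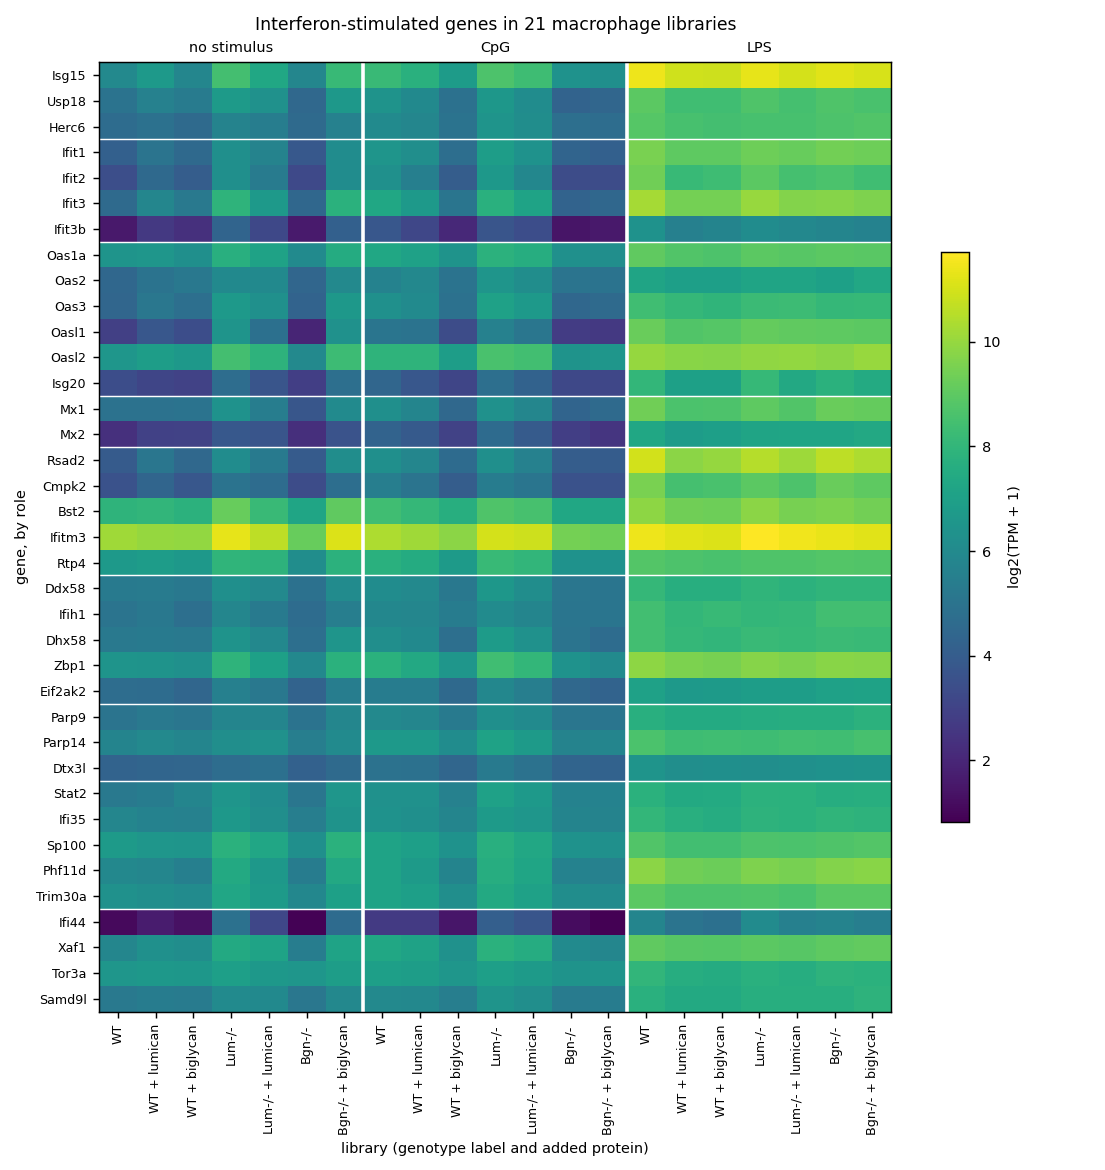
Level of the 37 genes (rows, grouped by role) in the 21 libraries (columns, grouped by stimulus), as log2(TPM + 1) on a colour scale. All LPS columns are bright, and among unstimulated columns the library labelled Lum-/- without protein and the library labelled Bgn-/- with biglycan stand out.

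Isg15 encodes a ubiquitin-like protein that is attached to other proteins during an interferon response. Its level was 55.2, 101 and 350 TPM unstimulated (lowest, median and highest of 7 libraries), 75.9, 214 and 410 TPM with CpG, and 1862, 2135 and 2771 TPM with LPS. Every LPS library thus lay above every other library, while CpG and unstimulated values overlapped. Usp18, the protease that removes ISG15 and dampens receptor signalling, reached 326 to 498 TPM with LPS from 22.0 to 106 TPM. Herc6, the mouse ligase that conjugates ISG15, reached 355 to 455 TPM from 22.8 to 51.1 TPM. All 3 members of this group rose with LPS, with a median difference of 3.70 on the log2(TPM + 1) scale.

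The IFIT proteins bind viral RNA that lacks the host cap marks. Ifit1 was at 13.2, 31.5 and 76.1 TPM unstimulated, 16.9, 72.7 and 116 TPM with CpG and 512, 634 and 737 TPM with LPS. Ifit3 was the most abundant of the 4, at 689 to 1222 TPM with LPS, and Ifit3b the least, at 46.2 to 83.2 TPM, within the limits of reads that the pair shares. All 4 IFIT genes rose, by a median of 4.50, and none of their LPS values overlapped those without LPS. The shared promoter stretch of Ifit3 and Ifit3b printed above thus stands beside levels that differed more than 10-fold in every LPS library.

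The OAS enzymes make the second messenger 2-5A, which turns on RNase L, and Isg20 is a nuclease that cuts single-stranded RNA. Oas1a was at 63.9, 93.3 and 206 TPM unstimulated, 73.8, 134 and 223 TPM with CpG and 409, 485 and 531 TPM with LPS. Oasl1, an OAS-like protein without synthetase activity that holds down Irf7 translation, went from 2.91, 12.6 and 86.7 TPM to 435, 519 and 591 TPM with LPS. Its unstimulated values were 86.7 and 79.2 TPM in the pair of alike libraries and at most 28.2 TPM in the other 5. All 6 genes of this group rose, with a median difference of 3.01.

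The Mx proteins are dynamin-like GTPases that trap viral nucleocapsids. Mx1 was at 12.4, 30.9 and 81.0 TPM unstimulated, 19.1, 54.2 and 79.5 TPM with CpG and 397, 518 and 644 TPM with LPS. Mx2 reached 114 to 165 TPM with LPS from 3.92 to 13.4 TPM. Both rose, with differences of 4.18 for Mx1 and 4.43 for Mx2.

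Rsad2 encodes viperin, which makes a chain-terminating nucleotide with the help of the kinase encoded by its neighbour Cmpk2. Rsad2 was at 14.4, 33.1 and 70.6 TPM unstimulated, 14.9, 48.3 and 75.7 TPM with CpG and 909, 1318 and 1983 TPM with LPS. Cmpk2 followed it, from 9.34 to 30.9 TPM unstimulated to 357 to 728 TPM with LPS. Bst2 (tetherin, which holds budding virions at the membrane) and Ifitm3 (which blocks fusion in endosomes) were already abundant. Ifitm3 was the highest of all 37 genes in each unstimulated library, at 576 to 2519 TPM, and reached 2277 to 3354 TPM with LPS. It was 1 of the 2 members whose LPS and unstimulated values overlapped, together with Ifi44, and for both the overlap came from the untreated library labelled Lum-/-. All 5 genes of this group rose, with a median difference of 1.82.

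The cytosolic nucleic acid sensors include RIG-I (Ddx58), MDA5 (Ifih1) and LGP2 (Dhx58), the Z-nucleic acid sensor ZBP1 and the RNA-dependent kinase PKR (Eif2ak2). Ddx58 was at 28.6, 39.6 and 75.1 TPM unstimulated, 32.7, 61.7 and 95.7 TPM with CpG and 200, 244 and 266 TPM with LPS. Zbp1 was the most abundant of the 5 with LPS, at 713 to 928 TPM, and Eif2ak2 the least, at 104 to 136 TPM. All 5 rose, and their LPS values lay above all others.

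The remaining groups hold ADP-ribosylation proteins, nuclear proteins and genes of other roles, and all 12 rose. Parp9, which pairs with the ubiquitin ligase DTX3L, was at 30.5, 36.7 and 55.4 TPM unstimulated, 32.3, 54.9 and 74.3 TPM with CpG and 178, 193 and 225 TPM with LPS. Stat2, a subunit of the ISRE-binding complex, was at 33.2, 53.5 and 93.8 TPM unstimulated, 48.5, 79.1 and 132 TPM with CpG and 174, 201 and 226 TPM with LPS. The lowest LPS value of each was above its highest value elsewhere. Ifi44 had the lowest mean level of the 37 genes, at 0.862, 2.11 and 29.0 TPM unstimulated, 0.778, 5.38 and 16.5 TPM with CpG and 28.0, 47.0 and 66.9 TPM with LPS. Its 2 high unstimulated values, 29.0 and 24.2 TPM, were those of the pair of alike libraries, and the other 5 were at most 7.84 TPM.

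**Figure D2:**
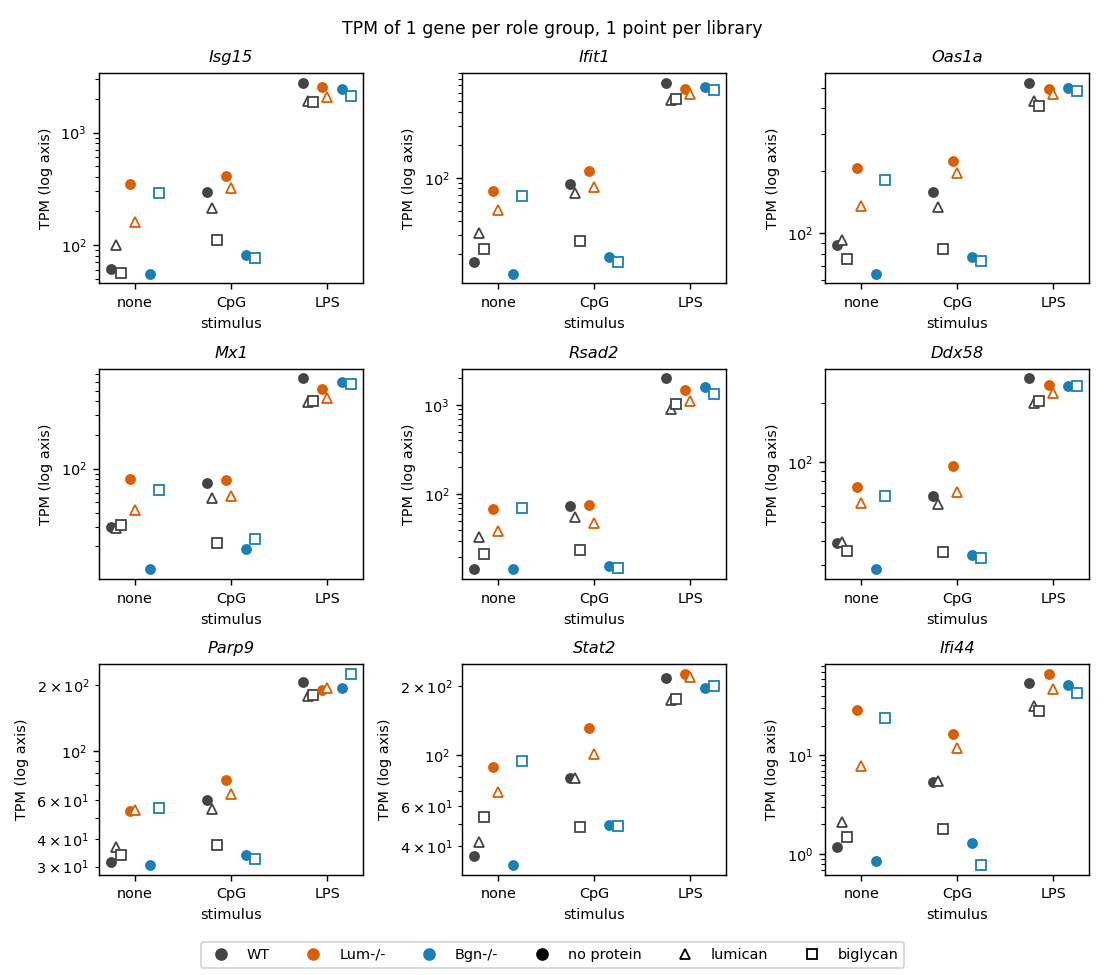
TPM on log axes for 1 gene of each of the 9 role groups, with 1 point per library, the stimulus on the horizontal axis, colour for the genotype label and shape for the added protein. In each panel the LPS points lie above the CpG points, and the CpG points of WT with biglycan and of both libraries labelled Bgn-/- lie lowest.

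Tested with limma over all 11764 genes, in a fit with genotype and treatment, all 37 members were higher with LPS alone than untreated. The limit was an adjusted p (Benjamini-Hochberg) under 0.05. Of all genes tested, 11.8% were called higher and 69.1% lower. The median difference of the members was 2.91 on the log2(TPM + 1) scale, with a range of 1.20 to 6.03, and the median of all genes was -0.80. Rsad2 differed most, by 6.03 ± 0.58 (SE, adjusted p = 4.53e-07 from limma), then Oasl1 by 5.34 ± 0.86 (adjusted p = 6.17e-05) and Cmpk2 by 5.26 ± 0.44 (adjusted p = 1.18e-07). Smallest were Tor3a, an AAA+ ATPase of the endoplasmic reticulum, at 1.20 ± 0.15 (adjusted p = 6.90e-06), Ifitm3 at 1.29 ± 0.35 (adjusted p = 0.00407) and Bst2 at 1.64 ± 0.36 (adjusted p = 0.000872). Since TPM are shares of a library, the fall of the all-gene median matters for the size of these differences. With libraries scaled by the median of ratios, the all-gene median became 0.01 and that of the members 3.83, with all 37 again called. Over all genes that scaling gave 4105 calls higher and 3946 lower, in place of 1385 and 8124. For 35 of the 37 genes all 7 LPS libraries lay above all 7 unstimulated libraries, which held for 8.61% of genes tested. Members with an ISRE match had a median difference of 2.80 (14 genes) and those with a window but no match one of 3.47 (13 genes).

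Against CpG, LPS gave higher levels of all 37 genes as well (9.89% of genes tested were called higher and 69.6% lower). The median difference was 2.27, against -0.75 for all genes. Scaled by the median of ratios it was 3.12, with all 37 called and 3767 genes higher and 3722 lower over all genes tested, in place of 1163 and 8192. It was largest for Rsad2, at 5.18 ± 0.58 (limma, adjusted p = 2.49e-06), Oasl1 at 4.64 ± 0.86 (adjusted p = 0.000232) and Cmpk2 at 4.41 ± 0.44 (adjusted p = 8.32e-07). Rtp4, a chaperone of receptor proteins, had one of the smallest, at 1.32 ± 0.39 (adjusted p = 0.00705), beside Ifitm3 at 1.22 ± 0.35 (adjusted p = 0.00617) and Tor3a at 1.07 ± 0.15 (adjusted p = 2.26e-05). Without the CpG library labelled Bgn-/- that had no protein, Rtp4 was no longer called and the median was 1.76, and without any other single library all 37 were called. For all 37 the 7 LPS libraries lay above the 7 CpG libraries, against 8.02% of genes tested.

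**Figure D3:**
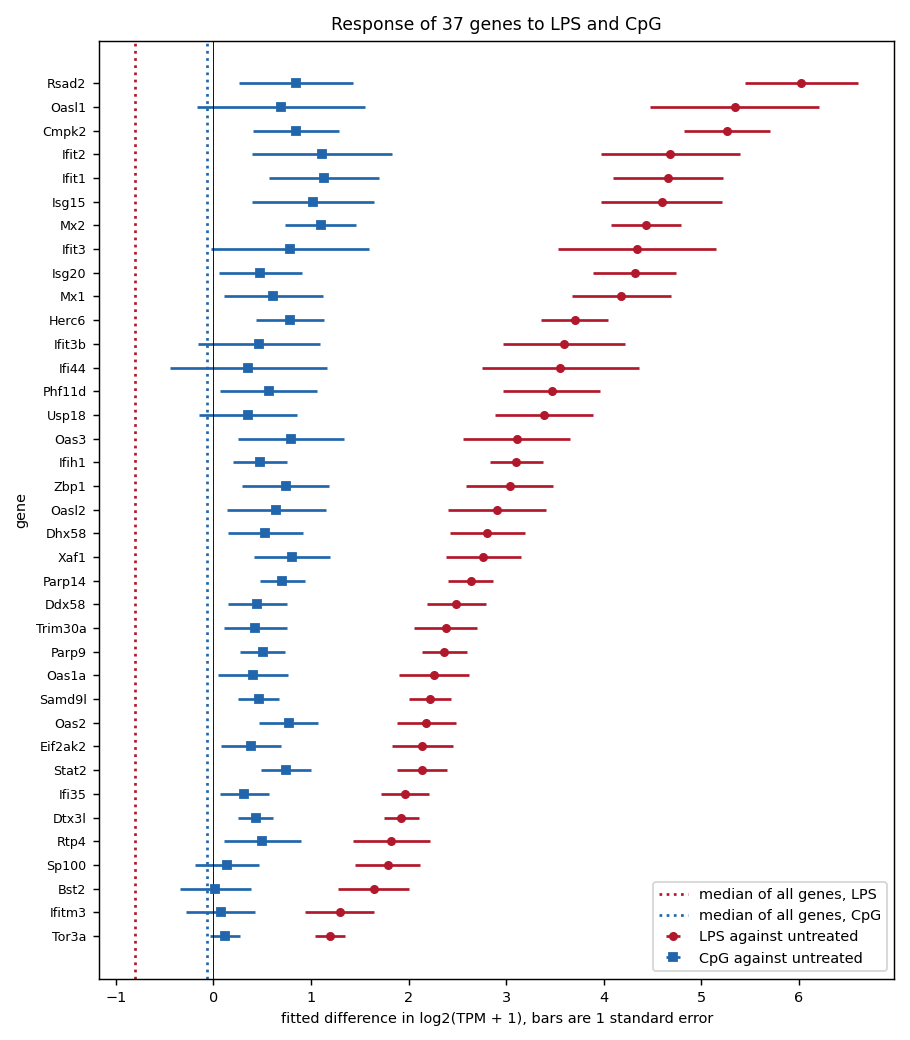
Fitted difference from untreated cells in log2(TPM + 1) for each of the 37 genes (rows, ordered by the LPS difference), with bars of 1 SE, red circles for LPS and blue squares for CpG. Dotted lines are medians of all genes tested. The LPS differences run from 1.20 for Tor3a to 6.03 for Rsad2, and the CpG differences from 0.02 for Bst2 to 1.13 for Ifit1.

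Genes upstream of the response gave calls in both directions with LPS, and for several the direction depended on the scaling. Ifnb1, which encodes interferon beta, was found at 0.852 to 2.31 TPM in all 7 LPS libraries and at no more than 0.354 TPM elsewhere, where 11 of 14 libraries were at 0. It fell under the minimum for testing. Ifna4 did not exceed 0.282 TPM in any library. Of 12 genes listed for interferon, its receptor and its signalling, 7 were tested. Of these, 3 were called higher and 4 lower, beside 11.8% and 69.1% of all genes. With median-of-ratios scaling 6 were called higher and 1 lower, beside 4105 and 3946 of all 11764 genes tested. The feedback inhibitor Socs1 rose by 3.41 ± 0.36 (limma, adjusted p = 1.16e-06), and by 4.23 when scaled. The receptor kinase Tyk2 fell by 1.29 (adjusted p = 5.68e-08), and by 0.40 when scaled, so both kept their direction, whereas the receptor gene Ifnar1 went from -0.17 to 0.75. Of 15 tested genes for induction of interferon 4 were called higher and 7 lower, and when scaled 10 higher and 2 lower, beside the same all-gene figures. Irf7, the factor that amplifies interferon transcription, rose by 3.12 ± 0.78 (adjusted p = 0.00226), and the adaptors Ticam2 and Mavs fell by 2.17 and 1.77, and when scaled by 1.33 and 0.95. Tlr4 differed by 0.29 ± 0.14 (adjusted p = 0.0756) and Tlr9 rose by 0.62 ± 0.25 (adjusted p = 0.0354), and both were called higher when scaled. The interferon-inducible GTPases of the GBP and IRG families rose in 14 of 15 cases, with a median of 2.52, and all 14 inflammatory cytokine genes rose, with a median of 6.69, and both counts were the same when scaled.

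With CpG alone, differences from untreated cells were much smaller than with LPS and not uniform across libraries. All 37 fitted differences from untreated cells were above 0, with a median of 0.53 against -0.07 for all genes, but 2 of 37 were called higher (7.11% of genes tested were called higher and 12.1% lower). With median-of-ratios scaling 3 members were called, with 1054 genes higher and 1000 lower over all genes tested. The 2 were Mx2, at 1.10 ± 0.36 (limma, adjusted p = 0.0493), and Parp14, an interferon-inducible mono-ADP-ribosyltransferase, at 0.71 ± 0.23 (adjusted p = 0.0476). Ifit1 had the largest difference, 1.13 ± 0.56, and was not called (limma, adjusted p = 0.175). Unadjusted p was under 0.05 for 8 members, and for 3973 of 11764 genes tested, in either direction. Both calls were near the threshold, and the number ranged from 0 to 10 when single libraries were left out, with 0 in 14 of 21 fits. It was 10 without the CpG library labelled Bgn-/- that had no protein, 4 without the untreated library labelled Lum-/-, and 12 without the pair of alike libraries. The median was 1.01 without either of the first 2 of these libraries, 0.98 without the pair, 0.33 without the WT library with CpG alone and 0.27 without the untreated library labelled Bgn-/-. For no member did all 7 CpG libraries exceed all 7 unstimulated ones (4.93% of genes tested). In the same comparison 7 of 14 cytokine genes rose, among them Tnf by 1.13 ± 0.29 (adjusted p = 0.0155), as did 1 of 15 GBP and IRG genes, Gbp5, by 1.01 ± 0.27 (adjusted p = 0.0213).

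Single matched pairs, which have no replicate and no test, showed where the CpG values differed. A member was counted as higher or lower past 1.5-fold in TPM + 1. In WT cells 32 of 37 were higher with CpG than without (9.27% of genes tested), with a median of 1.20. The mast cell markers summed to 3.45 TPM in the untreated WT library of that pair and 115 TPM in its CpG library, and their part in the result was not tested. With lumican in both libraries 26 were higher (7.74%), with a median of 0.74. With biglycan in both only 2 were (7.91%), with a median of 0.12. Under the label Bgn-/- without protein 3 were higher (7.24%), with a median of 0.23. Under the label Lum-/- 4 were higher (11.0%) and 3 lower (17.0%) without protein, and 5 higher (5.83%) with lumican. The remaining pair, label Bgn-/- with biglycan, had 32 members lower with CpG (13.7%) and a median of -1.43, and its reference is one of the pair of alike libraries.

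**Figure D4:**
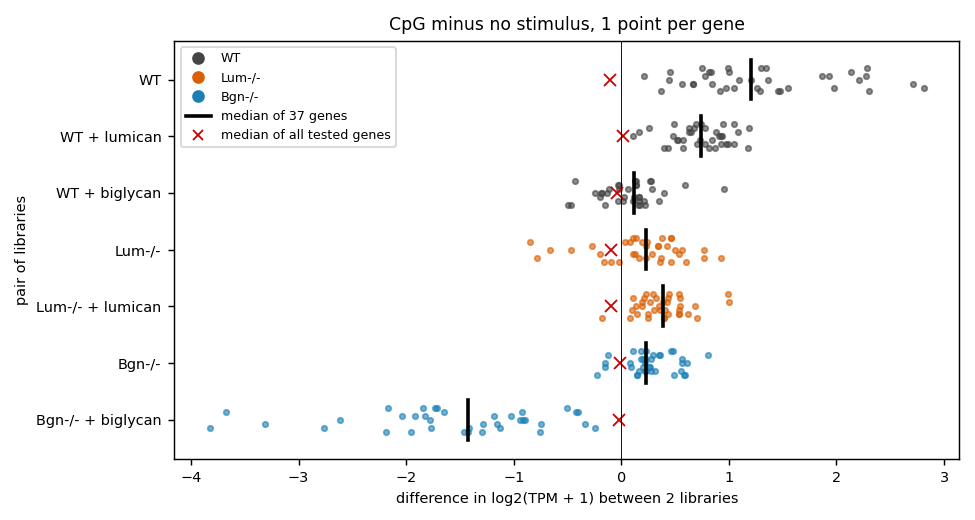
Difference in log2(TPM + 1) between the CpG and the unstimulated library of each genotype label and protein (rows), with 1 point per gene, a bar at the median of the 37 genes and a cross at the median of all tested genes. The bars lie at 1.20 in WT, 0.74 in WT with lumican and 0.12 in WT with biglycan.

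The 7 CpG libraries differed widely in the level of the antiviral genes. The sum of the 37 genes was 5042 TPM in WT, 4267 TPM in WT with lumican and 2686 TPM in WT with biglycan. It was 7117 TPM under the label Lum-/- and 5895 TPM there with lumican, but 2194 TPM under the label Bgn-/- and 2091 TPM there with biglycan. Ifit3 was at 158, 100 and 31.9 TPM in WT without protein, with lumican and with biglycan. It was at 211 and 140 TPM under the label Lum-/- without and with lumican, and at 18.7 and 21.1 TPM under the label Bgn-/- without and with biglycan. Isg15 was at 298, 214 and 110 TPM in the WT libraries, 410 and 322 TPM under the label Lum-/- and 81.9 and 75.9 TPM under the label Bgn-/-. Irf7 ran alongside, at 267, 213 and 119 TPM in WT, 537 and 433 TPM under the label Lum-/-, and 68.7 and 70.2 TPM under the label Bgn-/-. Ifnb1 was at 0.354 TPM in WT and 0.157 TPM in WT with lumican, and at 0 in the other 5 CpG libraries. Mast cell markers, the highest of them in WT libraries with CpG, ranged from 4.63 to 115 TPM in sum over these 7 libraries, and their part in the result was not tested.

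Added biglycan went with lower antiviral gene levels in CpG-treated WT cells. All 37 genes were lower in the WT library with biglycan and CpG than in the WT library with CpG, 32 of them past 1.5-fold (2.78% of genes tested), with a median of -1.02 against 0.11 for all genes. Ifit3 differed most, by -2.28, then Ifit2 by -2.24 and Mx1 by -1.73, and Tor3a least, by -0.43. At a limit of 2-fold, 19 genes remained past it, without a share of all genes for that limit. The same pair under the label Bgn-/- showed no such difference: none of 37 passed 1.5-fold in either direction (1.65% of genes tested lower and 1.53% higher), with a median of -0.05 and a range of -0.38 to 0.27. In the CpG library of that label without protein, Ifit3 and Isg15 were lower than in WT with biglycan, as the values above show. The part of these low levels in the result was not tested. The fit over all libraries, whose CpG reference also holds the CpG library labelled Lum-/-, gave 0 members called by limma (0.00% of genes tested). All 37 differences were below 0, with a median of -0.72. Unadjusted p was under 0.05 for 2 members, Dhx58 and Mx2, and for 364 of 11764 genes tested, in either direction. The median was -0.42 without the WT library with CpG alone and -1.17 without the CpG library labelled Bgn-/- that had no protein. Dhx58 differed by -1.07 ± 0.44 and Ifit2 by -1.32 ± 0.82, both with an adjusted p of 1.00 from limma. Whether biglycan acts differently under the 2 genotype labels was not tested, since each has 1 pair.

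Biglycan before LPS went with slightly lower levels in WT cells. All 37 genes were lower with biglycan and LPS than with LPS, 9 of them past 1.5-fold (3.09% of genes tested lower and 3.88% higher), with a median of -0.38. Without and with biglycan, Ifit2 was at 655 and 322 TPM, Rsad2 at 1983 and 1016 TPM, and Parp9 at 206 and 180 TPM. Under the label Bgn-/- none passed 1.5-fold (1.90% lower and 3.99% higher), and the median was -0.05. The fit over all libraries called 0 members (limma, 0.00% of genes tested, 0 members at an unadjusted p under 0.05). Its median was 0.05, and it ranged from -0.22 without the LPS library labelled Lum-/- that had no protein to 0.32 without the WT library with biglycan and LPS.

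Lumican before LPS also went with lower levels in WT cells, by amounts that did not pass the test over all libraries. In WT with LPS all 37 genes were lower with lumican, 8 past 1.5-fold (3.19% of genes tested), with a median of -0.36. Ifit2 was at 288 TPM with lumican against 655 TPM without it, Rsad2 at 909 against 1983 TPM, and Isg20 at 130 against 260 TPM. The LPS library of WT cells without protein is the reference of both protein pairs and had the highest sum of all 21 libraries, 23071 TPM, so both comparisons share it. Under the label Lum-/- with LPS 1 gene, Isg20, was lower past 1.5-fold and 0 were higher (2.43% and 4.38%), with a median of -0.10. The fit over all libraries called 0 members with LPS (0.0255% of genes tested higher and 0.00850% lower). All 37 differences were below 0 with a median of -0.33, and 0 members had an unadjusted p under 0.05. The median was -0.67 without the WT library with lumican and LPS, -0.22 without the WT library with LPS alone, and -0.69 and -0.11 without the LPS library labelled Lum-/- that had no protein or lumican. Isg20 differed by -0.88 ± 0.49 (limma, adjusted p = 0.445), Rsad2 by -0.91 ± 0.66 (adjusted p = 0.579) and Ifit2 by -0.99 ± 0.82 (adjusted p = 0.639).

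With CpG, lumican went with 4 lower and 0 higher genes past 1.5-fold in WT (1.44% of genes tested lower and 2.51% higher) and a median of -0.22. Under the label Lum-/- it went with 3 (2.53%), all 37 being lower, and a median of -0.35. Ifit2 had the largest difference in both, -0.75 in WT and -0.74 under the label Lum-/-. The fit called 0 members (limma, 0.00%, 0 at an unadjusted p under 0.05) with a median of 0.05. Its reference also includes the CpG library without protein labelled Bgn-/-, where levels were low, and without that library the median was -0.27.

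**Figure D5:**
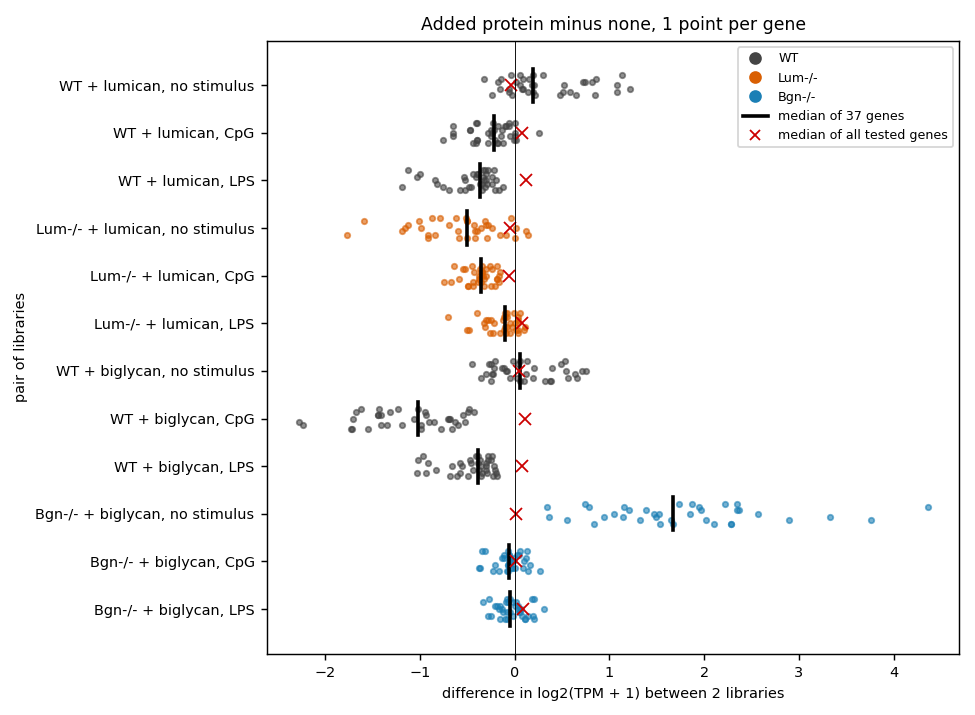
Difference in log2(TPM + 1) between the library with added protein and the library without it (rows, by genotype label and stimulus), with 1 point per gene, a bar at the median of the 37 genes and a cross at the median of all tested genes. The WT pair with biglycan and CpG lies at -1.02 and its counterpart labelled Bgn-/- at -0.05. The unstimulated pair labelled Bgn-/- lies at 1.67 and holds one of the pair of alike libraries.

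Without a stimulus, the protein pairs under the labels Lum-/- and Bgn-/- hold the libraries that stood apart. Both WT pairs take as reference the untreated WT library, which differed from other WT libraries in Cma1. This gene was at 1.03 TPM there, 25.2 TPM with lumican alone and 20.5 TPM with biglycan alone. The part of that difference in the WT pairs was not tested. In WT cells 10 genes were higher with lumican and 0 lower (5.81% of genes tested higher and 4.48% lower), with a median of 0.20, led by Ifit3 at 1.22. With biglycan 4 were higher and 0 lower (8.17% and 3.60%), with a median of 0.06, and Ifit3b differed most, by 0.76. Under the label Lum-/- 16 were lower with lumican and 0 higher (12.6% and 8.05%), with a median of -0.50, and under the label Bgn-/- 34 were higher with biglycan and 0 lower (12.3% and 6.80%), with a median of 1.67. Oasl1 differed widely, at 79.2 TPM with biglycan and 2.91 TPM without it under the label Bgn-/-. The untreated library labelled Lum-/- had 86.7 TPM of Oasl1. Arg1, which encodes the arginine-degrading enzyme arginase, was at 688 TPM in the untreated library labelled Lum-/- and 601 TPM in the library labelled Bgn-/- with biglycan alone, and the other 19 had 67.2 TPM or less. Over the 5 B cell markers the unstimulated sum ranged from 113 to 275 TPM and was highest in the untreated library labelled Lum-/-. The part of those differences in the levels of the antiviral genes was not tested.

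Between genotype labels, the fit called 1 of 37 antiviral genes higher under the label Lum-/- than in WT. All 37 fitted differences were above 0, with a median of 0.60 against -0.04 for all genes. Unadjusted p was under 0.05 for 18 members, and for 2503 of 11764 genes tested, in either direction. Stat2 alone was called, at 0.67 ± 0.18 (limma, adjusted p = 0.0456), where 1.64% of genes tested were called higher and 3.70% lower. Ifi44 had the largest difference, 1.68 ± 0.55 (adjusted p = 0.0951), followed by Oasl1 at 1.20 ± 0.59 (adjusted p = 0.264) and Ifit3 at 1.14 ± 0.55 (adjusted p = 0.257). With 1 library left out at a time, no member was called in 16 of 21 fits, among them the fit without the untreated library labelled Lum-/-, and without the pair of alike libraries 2 were, with a median of 0.35. Single matched pairs, with no test of how they differ, gave a median of 1.30 untreated, between 2 libraries described above as unlike others (34 of 37 higher past 1.5-fold, 13.9% of genes tested), 0.61 with lumican alone (21 higher, 3.91%), 0.43 with CpG (6 higher, 3.97%) and 0.32 with CpG and lumican (4 higher, 2.07%). With LPS the median was -0.14 (0 past 1.5-fold, 3.18% of genes tested higher and 5.47% lower), and with LPS and lumican 0.16 (0 past it, 2.77% higher and 6.49% lower). Stat2 was at 36.5 and 88.8 TPM untreated in WT and under the label Lum-/-, 79.1 and 132 TPM with CpG, and 217 and 226 TPM with LPS.

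Under the label Bgn-/- no member was called against WT in the fit over all treatments (limma, 0.0850% of genes tested higher and 0.128% lower, 0 members at an unadjusted p under 0.05). The median was -0.14, and single libraries left out moved it from -0.40, without either unstimulated library with biglycan, to 0.07, without the CpG library labelled Bgn-/- that had no protein. The matched pairs went in different directions. With CpG alone 36 of 37 were lower past 1.5-fold (2.98% of genes tested), with a median of -1.25 and Ifit3 at -3.02, against the same WT library that is the reference of the biglycan pair. With CpG and biglycan 5 were lower (2.96%), with a median of -0.31. Untreated, 6 were lower (4.24%), with a median of -0.35, and Mx1 differed most, by -1.19, from 29.7 TPM in WT to 12.4 TPM. With biglycan alone 33 were higher (10.4%), with a median of 1.18, which rests on one of the pair of alike libraries. With LPS 2 were lower (3.37%), with a median of -0.14, and with LPS and biglycan 1 was higher (3.20%), with a median of 0.27. The LPS levels of Isg15 were 2771 TPM in WT and 2421 TPM under the label Bgn-/-, while its CpG levels were 298 and 81.9 TPM.

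Whether the response to a stimulus itself differed between labels was tested with a genotype-by-stimulus term, which left 6 residual degrees of freedom. No member and no gene was called in any of the 4 comparisons (limma, 0.00% of genes tested). Without the untreated library labelled Bgn-/- 5 members were called for CpG under that label, and without the lumican-alone library of WT or of the label Lum-/- 2 were called for LPS under the label Lum-/-. For CpG under the label Bgn-/- all 37 differences of response were below 0, with a median of -1.07 against 0.04 for all genes. Unadjusted p was under 0.05 for 17 members, and for 626 of 11764 genes tested, in either direction. Ifit3 had -2.65 ± 1.12 and Ifit2 -2.44 ± 0.98, both with an adjusted p of 0.915 from limma. The median was -0.37 without the pair of alike libraries, -0.27 without either unstimulated library with biglycan, -0.49 without the CpG library labelled Bgn-/- that had no protein, and -1.95 without the untreated library of that label. For LPS under the label Lum-/- 15 members had an unadjusted p under 0.05, as had 1445 of 11764 genes tested, in either direction. All 37 differences were below 0 too, with a median of -1.16. Without the untreated library labelled Lum-/-, with or without the other alike library, that median was -0.59. Oasl1 had -2.80 ± 1.26 (limma, adjusted p = 0.414) and Ifi44 -2.69 ± 1.14 (adjusted p = 0.395). For CpG under the label Lum-/- the median was -0.71. It was -0.15 without the untreated library labelled Lum-/- and -1.21 without either unstimulated library with lumican. Unadjusted p was under 0.05 for 1 member, Mx2, and for 821 of 11764 genes tested, in either direction. For LPS under the label Bgn-/- the median was -0.15, with 0 such members, and it turned to 0.47 without the pair of alike libraries and 0.63 without either unstimulated library with biglycan. These tests take unstimulated libraries as their base, and in the matched pairs the LPS minus unstimulated median was 3.38 in WT, 1.76 under the label Lum-/- and 3.73 under the label Bgn-/-.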

How the data were processed

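RNA was sequenced from 21 libraries of mouse CD11b+ peritoneal cells. Tools named in the submitters' processing notes are kallisto 0.44.0 and bcl2fastq 1.8.4, and the genome build is GRCm38. The deposited table gives each transcript in TPM, normalized within each library by the authors. Its column of row sums, a signal the authors made by adding the 21 TPM values, was not used. TPM keep no read counts, so the depth of a library, and the counting error of a value, are unknown. Of 89562 transcripts, 82788 carry a gene name, 5424 were matched by identifier to GENCODE M21, and 1350 (5350 to 7548 TPM per library) were left out. TPM were summed to genes.

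R 4.3.3 and limma 3.58.1 were run on log2(TPM + 1) of the 11764 genes whose mean reached 1 TPM, with a mean-variance trend, two-sided tests and Benjamini-Hochberg adjustment over these genes. The additive fit of genotype and 9 treatments has 10 residual degrees of freedom, and standard errors (SE) are from it. Its LPS and CpG differences compare libraries without protein, while all 21 libraries share its estimate of the spread. With 1 library per combination, other genotypes given the same treatment serve as repeats, so p-values measure the spread between these libraries and not between animals, and any genotype-by-treatment difference widens it. Differences understate the change of low genes, because of the pseudocount of 1. Single pairs of libraries have no test. The fit was tested on simulated data.

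The 37 members, the pathway and marker lists and the alternatives were chosen with earlier results of these data known. All members may be named. Per-library values are given for the first gene of each role group, and statistics for genes with the largest or smallest differences and for called genes. Genes of the lists are named by place in the list or by size. Statistics of Parp14, Stat2 and Dhx58 outside those places were chosen after their values were seen. Alternatives were other pseudocounts and filters, median-of-ratios scaling, other model terms and libraries left out. Other steps used matplotlib 3.10.9, numpy 2.4.6, pandas 2.3.3 and Python 3.11.15.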

Additional observations from a re-analysis of the deposited data

Results flagged for a closer look

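Tor3a, the member with the smallest LPS difference, was higher with CpG than without it in both pairs labelled Lum-/-, by 0.04 without protein and 0.11 with lumican on the log2(TPM + 1) scale, and lower in both pairs labelled Bgn-/-, by -0.12 without protein and -0.42 with biglycan. The mean of the Lum-/- pairs minus that of the Bgn-/- pairs was 0.341. This difference was not tested, and 1 pair of each label holds one of the pair of alike unstimulated libraries.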

How the results depend on the processing

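The LPS comparisons kept 37 called members under each alternative run, apart from 36 against CpG when 1 library was left out, where the range over single libraries was 36 to 37. No member changed sign where its fitted difference is named, but medians of comparisons without calls did, most of which stand in the report. Scaling turned the median for biglycan with LPS from 0.05 to -0.09. Calls with CpG against untreated, 2 in the report, were 0 with a pseudocount of 0.1, no filter, no genotype term or without 3 unstimulated libraries (the pair of alike libraries and untreated WT), 1 with a pseudocount of 5 or separate stimulus and protein terms, and 12 without the pair of alike libraries. With separate terms, added after seeing the data, they were 14 without that pair and 7 without all 3. Leaving out single libraries gave 0 to 10. The 1 call for the label Lum-/- became 2 with a mean of at least 5 TPM, with median-of-ratios scaling and without the pair, and 0 with no filter or separate terms, also without 2 or 3 libraries, with a range of 0 to 2 over single libraries. For responses, 1 member was called for LPS under the label Bgn-/- without the pair, and single libraries gave 0 to 2 for LPS under the label Lum-/- and 0 to 5 for CpG under the label Bgn-/-, the 5 without the untreated library labelled Bgn-/-. Where a library left out leaves a group with 1, that one is assumed to vary like the others. Responses under the label Bgn-/- could not be fitted without the 3 libraries. The cause was not tested. At 2-fold instead of 1.5-fold, WT pairs with lumican held 4 higher (alone), 0 (with CpG) and 3 lower (with LPS) members. Under the label Lum-/- lumican pairs held 6 lower (alone), 0 (with CpG) and 0 (with LPS). WT pairs with biglycan held 0 (alone), 19 lower (with CpG) and 2 lower (with LPS). Between labels they held 1 higher (Lum-/-, CpG), 2 lower (Bgn-/-, untreated) and 0 (Bgn-/-, LPS). Scaling gave 15 for WT lumican with LPS and 3 under the label Lum-/-. Counts of members at 2-fold, in scaled pairs and with libraries left out have no share of all genes beside them. They are descriptions only. The labels carry no replicate numbers. Pairing libraries by genotype and protein, as a block added after seeing the data, gave 37 calls for LPS against untreated and against CpG and 1 for CpG against untreated, or 8 without the pair of alike libraries. Without read counts, low genes such as Ifi44 and Ifnb1 have an unknown counting error.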
